A study of Mus musculus with 24 samples.

Results

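YAP and TAZ (the products of Yap1 and Wwtr1), the transcription factor partner Tead1, the kinases Lats1 and Lats2, the angiomotin-like genes Amotl1 and Amotl2 and the target genes Ctgf, Cyr61 and Ankrd1 were followed in differentiating pre-adipocytes that had lost 14-3-3ζ. The genes were taken by symbol from a table of 9262 loci. Of the 10 listed genes 9 had a row, and Lats1 was not analysed here. The cells were 3T3-L1, mouse pre-adipocytes of an established line, transfected with an siRNA against 14-3-3ζ (si14-3-3ζ) or a control siRNA (siCon). After 24 h the cells were induced with 172 nM insulin, 500 μM IBMX, an inhibitor of phosphodiesterases, and 500 nM dexamethasone, a glucocorticoid, in medium with fetal bovine serum. RNA was taken before induction (0 h) and after 24 and 48 h, which gave 3 groups of si14-3-3ζ and 3 of siCon cells with 4 libraries each. All groups are 1 cell line with transient transfection, and the 0 h groups were transfected but not induced.

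In the Hippo pathway, LATS kinases phosphorylate YAP and TAZ, and 14-3-3 proteins dock on the phosphorylated site and hold both coactivators in the cytoplasm. Unphosphorylated YAP and TAZ enter the nucleus, bind TEAD factors and switch on growth and matrix genes, of which Ctgf, Cyr61 and Ankrd1 are the usual readouts. In mesenchymal precursors TAZ also binds PPARγ and restrains the fat cell programme.

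TEAD factors bind the letters GGAATG, which read CATTCC on the opposite strand. The promoters of Cyr61, Ankrd1 and Amotl2 hold these letters, printed in capitals, in the 250 bases before the transcription start. They are shown because their genes were also called lower by 48 h of induction in both kinds of cell. Sequences are from RefSeq (GRCm38.p6), 5′ to 3′ along the gene.
Cyr61, chr3:145649986-145650235, minus strand: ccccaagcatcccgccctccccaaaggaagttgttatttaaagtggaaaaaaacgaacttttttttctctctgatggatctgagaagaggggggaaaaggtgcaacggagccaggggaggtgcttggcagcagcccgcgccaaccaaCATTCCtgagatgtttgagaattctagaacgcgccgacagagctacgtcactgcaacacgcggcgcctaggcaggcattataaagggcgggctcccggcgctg
Ankrd1, chr19:36119845-36120094, minus strand: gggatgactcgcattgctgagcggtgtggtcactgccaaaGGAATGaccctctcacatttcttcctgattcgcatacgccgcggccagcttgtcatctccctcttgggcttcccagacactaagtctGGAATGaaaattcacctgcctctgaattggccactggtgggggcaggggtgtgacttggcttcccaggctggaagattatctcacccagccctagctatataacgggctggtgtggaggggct
Amotl2, chr9:102717554-102717803, plus strand: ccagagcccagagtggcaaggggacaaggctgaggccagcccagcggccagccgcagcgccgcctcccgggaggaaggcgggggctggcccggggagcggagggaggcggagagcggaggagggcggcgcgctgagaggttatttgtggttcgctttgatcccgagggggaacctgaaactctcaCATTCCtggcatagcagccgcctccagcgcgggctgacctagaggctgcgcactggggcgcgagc
The match of Cyr61 began 103 bases before the start, that of Amotl2 65 bases before it, and those of Ankrd1 210 and 123 bases before it. Promoters were matched for 8 of the 10 genes, and Ctgf and Tead1 had no entry. Of the 10 promoters of these 8 genes, 6 held the letters on either strand, against 12.6% of all 32851 mouse promoters of the same length. The others with a match were the promoter of Yap1 and both promoters of Wwtr1, which overlap and hold the same match, so 5 of the 8 genes held the letters. Those of Lats1, Lats2 and Amotl1 had none, although Amotl1 and the Lats2 locus were also called lower by 48 h in both kinds of cell. No member promoter held a CArG box, the site of serum response factor, which 1.47% of all promoters held. A match describes letters and shows no binding.

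Values are FPKM, fragments scaled to transcript length and library size, so levels can be set side by side between genes. A library's FPKM summed to between 474548 and 642146, and libraries of a group correlated at 0.974 to 0.993 across loci. The table holds no read counts and the depth behind a value is unknown. No locus had a top group mean under 1.45 FPKM or under 1.18 times its bottom one, so the table holds loci selected for level and change. Differences were tested with limma on log2(FPKM + 1) over 9251 loci and called at a Benjamini-Hochberg adjusted p under 0.05. Fold changes on this scale understate those of genes near 1 FPKM. The study's methods speak in general of independent experiments, and the labels do not say whether the 4 libraries of a group came from separate cultures. If they did not, the p-values cover technical spread alone. The target of the siRNA, Ywhaz (chr15:36700525-36724302), stood at 29.5, 37.6 and 39.6 FPKM in si14-3-3ζ cells at 0, 24 and 48 h, against 166, 226 and 259.9 FPKM in siCon cells, and no library of the 2 kinds of cell overlapped. In bulk RNA, fewer cells of a type and less RNA per cell cannot be told apart.

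Before induction Amotl2 was the most abundant of the 9 genes in siCon cells, at 48.5 FPKM, followed by Yap1 at 45.6, Wwtr1 at 29.6, Amotl1 at 26.5, Cyr61 at 21.7, Tead1 at 17.6 and Lats2 at 17.2. Ctgf, at 5.59 FPKM, and Ankrd1, at 1.76, were far lower. Knockdown of 14-3-3ζ came with a higher Yap1 at all 3 times. It came with a lower Amotl1 at 0 h, lower Amotl2 and Cyr61 at 24 h and a lower Tead1 at 48 h. At 0 h, 1 of the 9 genes was higher and 1 lower, where 8.1% of all tested loci were higher and 9.16% lower. The 24 h comparison called 1 higher and 2 lower, beside 14.5% and 14% of all loci. With the replicate number as a block, which the libraries' correlations allow at 24 h, 4 were lower there, beside 18.9% of all loci. The 48 h comparison called 1 higher and 1 lower, beside 23.3% and 22.8%. Applied to 9 genes, these shares come to about 1 or 2 genes in each direction. The medians of all tested loci lay within 0.03 of 0 on the log2 scale in every comparison.

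**Figure D1:**
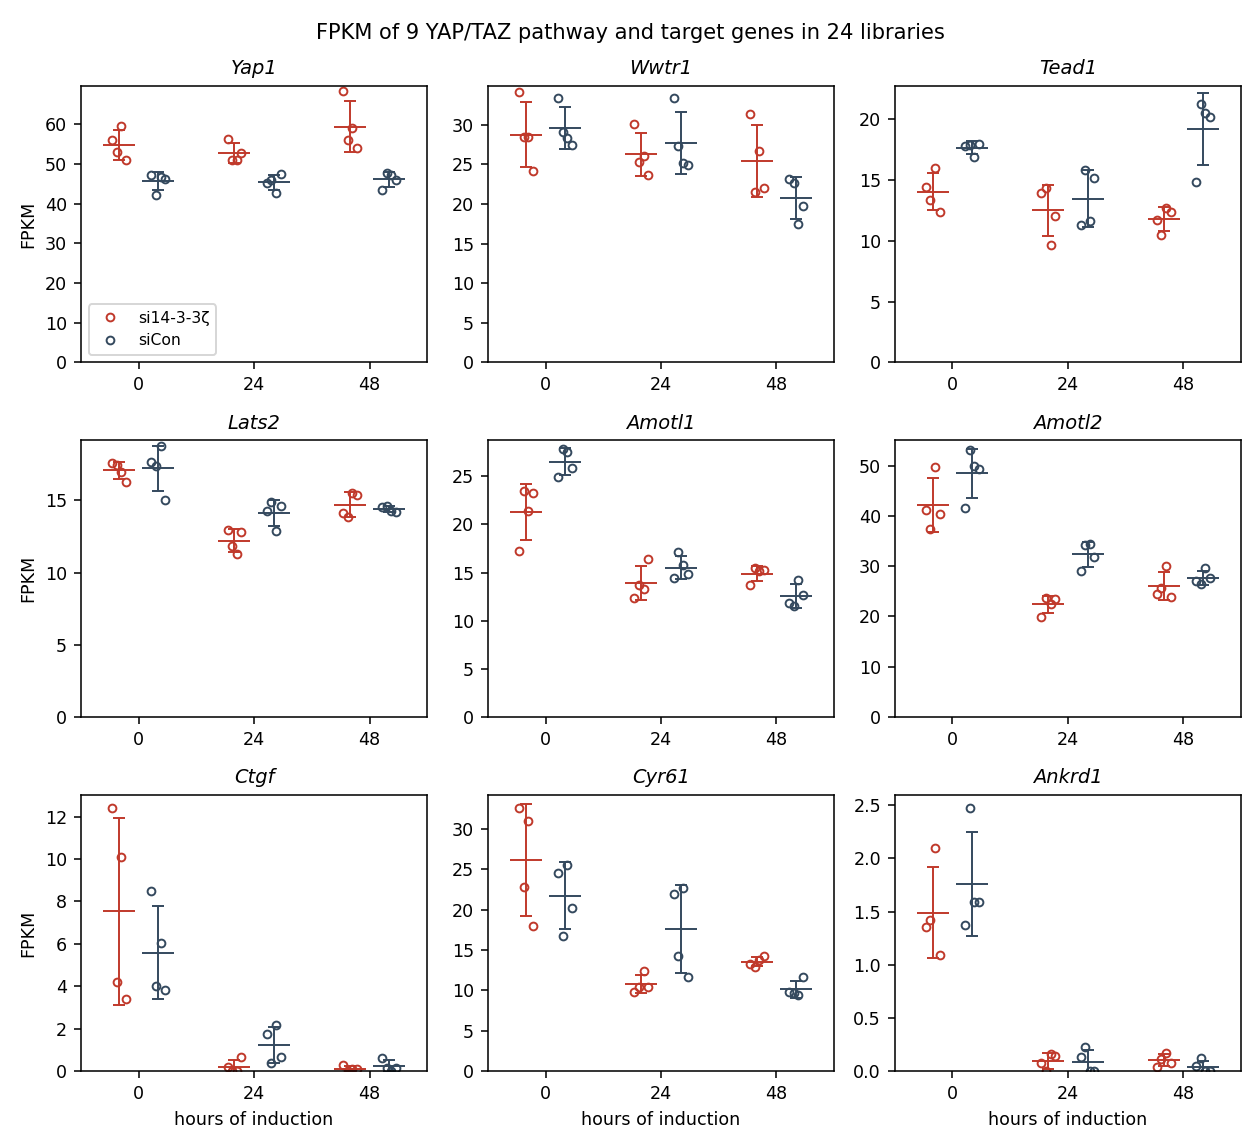
FPKM (vertical axes, linear, from 0) of the 9 genes against hours of induction. Each circle is a library, red for si14-3-3ζ and blue for siCon cells, with the mean and SD of 4 libraries. Yap1 lay at 50.9 to 68.3 FPKM in the si14-3-3ζ libraries, above all siCon libraries at 42.2 to 47.7. After induction Ankrd1 lay at 0.224 FPKM or lower in both. Ctgf lay at 0.401 to 2.16 in siCon cells at 24 h and at 0.665 or lower in the other induced groups.

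Yap1 (XLOC_033339, NCBIM37 chr9:7931999-8004596, minus strand) encodes the coactivator YAP. In replicates 1 to 4 it had 55.9, 52.8, 59.5 and 51.0 FPKM in si14-3-3ζ cells at 0 h, against 47.2, 42.2, 46.8 and 46.3 in siCon cells. At 24 h the libraries had 56.3, 50.9, 50.9 and 52.8 FPKM with knockdown, against 45.1, 45.8, 42.8 and 47.5 in siCon cells. At 48 h they had 68.3, 55.9, 59.1 and 54.1 FPKM with knockdown, against 43.5, 47.7, 47.2 and 46.0 in siCon cells. Each of the 12 si14-3-3ζ libraries stood above each of the 12 siCon libraries. The means were 1.20, 1.16 and 1.29 times those of siCon cells at 0, 24 and 48 h, with log2 changes of 0.26, 0.21 and 0.35 (standard error 0.072 each) and limma adjusted p of 0.0162, 0.0289 and 4.3e-04. An exact permutation test of FPKM, 2-sided, gave p = 0.0286 at each time, unadjusted, the smallest that 4 libraries against 4 allow. Among the 3 times, the calls of 0 and 24 h rested on single libraries. At 0 h the adjusted p was 0.0593 without siCon 0 h replicate 2 and 0.0696 without si14-3-3ζ 0 h replicate 3 (0.00642 to 0.0696 over all alternatives). At 24 h it was 0.0543 and 0.0883 without siCon 24 h replicate 1 or 3, and 0.0912 and 0.0539 without si14-3-3ζ 24 h replicate 1 or 4 (0.0140 to 0.0912 over all alternatives).

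Wwtr1 (XLOC_020571, chr3:57259571-57379832, minus strand), which encodes TAZ, passed the test against siCon cells at no time. Its libraries ran from 24.2 to 34.1 FPKM in si14-3-3ζ cells at 0 h, against 27.5 to 33.4 in siCon cells, and at 24 h from 23.6 to 30.1, against 25.0 to 33.4. At 48 h it had 31.4, 21.6, 26.7 and 22.1 FPKM with knockdown, against 23.2, 22.6, 17.5 and 19.8 in siCon cells, so the groups overlapped. The log2 change at 48 h was 0.27 (95% interval 0.01 to 0.53, limma adjusted p = 0.0790). The adjusted p was 0.0430 without si14-3-3ζ 48 h replicate 2 and 0.0497 without replicate 4. With the replicate number as a block it was 0.00474 (0.00474 to 0.285 over all alternatives). The FPKM of Yap1 over that of Wwtr1 averaged 1.93 ± 0.223 with knockdown at 0 h, against 1.55 ± 0.138 in siCon cells (SD, n = 4). At 24 h it was 2.02 ± 0.155 against 1.66 ± 0.228, and at 48 h 2.36 ± 0.199 against 2.25 ± 0.349.

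The 6 measured 14-3-3 loci, among them Ywhab, Ywhae, Ywhah and Ywhaq, summed at 0 h to 645 ± 12.4 FPKM with knockdown, against 786 ± 53.7 in siCon cells (SD, n = 4). Ywhaz made up 4.58% of that sum with knockdown, against 21.1% in siCon cells. Beside it Yap1 and Wwtr1 together came to 83.6 ± 6.74 FPKM with knockdown, against 75.2 ± 3.95 in siCon cells, a description of RNA that says nothing of the proteins.

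Tead1 (XLOC_029028, chr7:119822832-120050319, plus strand) encodes a TEAD factor that carries YAP and TAZ to DNA. At 0 h it had 14.5, 13.4, 16.0 and 12.4 FPKM in si14-3-3ζ cells, against 17.8, 17.9, 16.8 and 18.0 in siCon cells. At 48 h it had 11.7, 10.4, 12.7 and 12.4 FPKM in si14-3-3ζ cells, against 14.8, 21.3, 20.5 and 20.1 in siCon cells. The groups did not overlap at either time, and at 24 h they did, at 9.69 to 14.3 against 11.3 to 15.8 FPKM. At 48 h the mean was 1.62-fold lower with knockdown, 11.8 ± 0.993 against 19.2 ± 2.94 FPKM (SD, n = 4), a log2 change of −0.65 (standard error 0.128, limma adjusted p = 3.1e-04). The change at 0 h, −0.31, did not pass limma's test (adjusted p = 0.0910, and 0.0482 in a fit of only the 2 groups compared, with 0.0482 to 0.212 over all alternatives), although the exact permutation test gave p = 0.0286 at 0 and 48 h, unadjusted, the smallest it allows.

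Lats2, the kinase that phosphorylates YAP and TAZ, shares its locus with Xpo4, a nuclear export gene on the same strand (XLOC_010310, chr14:58260914-58377225, minus strand), so the locus cannot be assigned to Lats2 alone. The locus had 12.9, 11.8, 11.3 and 12.8 FPKM in si14-3-3ζ cells at 24 h, against 14.2, 14.9, 12.9 and 14.6 in siCon cells, so the lowest siCon library lay within the si14-3-3ζ range. The log2 change was −0.20 (standard error 0.075, limma adjusted p = 0.0527). With the replicate block the adjusted p was 0.0377. It was also under the threshold without siCon 0 h replicate 3 or 4 (0.0487 and 0.0403) and without siCon 24 h replicate 3 (0.0334), with 0.0334 to 0.158 over all alternatives. At 0 and 48 h the changes were −0.01 and 0.03, with 95% intervals of −0.16 to 0.15 and −0.13 to 0.18.

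The angiomotin-like proteins are junction scaffolds that bind YAP and TAZ and keep them out of the nucleus. Amotl1 (XLOC_033351, chr9:14346410-14447973, minus strand) had 17.2, 23.5, 21.3 and 23.3 FPKM in si14-3-3ζ cells at 0 h, against 24.9, 27.8, 27.6 and 25.9 in siCon cells, with no overlap. The log2 change was −0.31 (standard error 0.099, limma adjusted p = 0.0319). This call ended without siCon 0 h replicate 2, 3 or 4 (0.0774, 0.0734 and 0.0541), without si14-3-3ζ 0 h replicate 1 or 3 (0.130 and 0.0657) and in a fit of the 2 groups alone (0.0711), with 0.00685 to 0.130 over all alternatives. At 48 h the sign was opposite, with 13.7, 15.5, 15.2 and 15.2 FPKM in si14-3-3ζ cells against 11.8, 11.5, 14.3 and 12.7 in siCon cells, groups that overlapped (log2 change 0.23, limma adjusted p = 0.0569). This value passed when 1 of 4 libraries was left out, with 0.0299 for siCon 48 h replicate 3 and 0.0471 for replicate 1 of the knockdown at 48 h. It was 0.0350 for replicate 1 of the knockdown at 0 h, 0.0453 for its replicate 4 at 24 h and 0.0437 with median-ratio scaling, with 0.0187 to 0.136 over all alternatives.

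Amotl2 (XLOC_033110, chr9:102619002-102635748, plus strand) is a scaffold of the same family and itself a target of YAP. At 24 h it had 20.0, 23.8, 22.4 and 23.5 FPKM in si14-3-3ζ cells, against 29.1, 34.2, 34.4 and 31.8 in siCon cells. The groups stood apart, the mean being 1.44-fold lower with knockdown (log2 change −0.51, standard error 0.095, limma adjusted p = 3.6e-04, exact permutation p = 0.0286). The changes at 0 and 48 h, −0.20 and −0.09, did not pass (limma adjusted p = 0.154 and 0.454).

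Cyr61 (XLOC_021154, chr3:145309935-145312949, minus strand), a secreted matrix protein of the CCN family, had 32.6, 22.8, 31.0 and 17.9 FPKM in si14-3-3ζ cells at 0 h, against 24.5, 16.7, 25.6 and 20.2 in siCon cells. At 24 h it had 9.84, 10.5, 12.5 and 10.5 FPKM with knockdown, against 21.9, 14.2, 22.6 and 11.7 in siCon cells. At 48 h it had 13.3, 12.9, 13.8 and 14.2 FPKM with knockdown, against 9.85, 9.70, 9.39 and 11.7 in siCon cells. Only at 48 h did the groups not overlap, and there knockdown was the higher. At 24 h the mean was 1.63-fold lower with knockdown (log2 change −0.61, standard error 0.183, limma adjusted p = 0.0152), and the siCon libraries fell into a higher pair, replicates 1 and 3, and a lower pair. Without siCon 24 h replicate 1 or 3 the adjusted p was 0.0625 or 0.0697 (0.00284 to 0.0697 over all alternatives). At 48 h the log2 change of 0.39 gave an exact permutation p of 0.0286 but a limma adjusted p of 0.0854 (0.0160 in a fit of only the 2 groups compared and 0.0414 with the replicate number as a block, with 0.0160 to 0.166 over all alternatives).

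Ctgf (XLOC_002026, chr10:24315248-24318489, plus strand), the connective tissue growth factor of the same family, had 12.4, 4.23, 10.1 and 3.42 FPKM in si14-3-3ζ cells at 0 h, against 8.48, 4.00, 6.05 and 3.82 in siCon cells. At 24 h it had 0.223 and 0.665 FPKM in replicates 1 and 4 with knockdown and was listed at 0 in replicates 2 and 3, against 1.76, 0.401, 2.16 and 0.657 in siCon cells. The groups overlapped at both times. The log2 change at 24 h was −0.83 (standard error 0.314, limma adjusted p = 0.0511), and at 0 h 0.27 (adjusted p = 0.594). The 24 h value lay at the threshold, with an adjusted p of 0.0137 with the replicate number as a block and 0.0118 with a pseudocount of 0.1 (0.0118 to 0.171 over all alternatives). It also passed without siCon 24 h replicate 2 or 4 (0.0243 and 0.0433), si14-3-3ζ 24 h replicate 4 (0.0338), siCon 0 h replicate 1 (0.0447) or any of si14-3-3ζ 0 h replicates 1 to 4 (0.0350, 0.0469, 0.0479 and 0.0364). The 4 genes lower at 24 h with that block were Amotl2, Cyr61, Ctgf and the Lats2 locus, beside 18.9% of all loci.

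Ankrd1 (XLOC_015920, chr19:36186455-36194334, minus strand), a cofactor with ankyrin repeats best known in heart muscle, was the lowest of the 9. It had 1.35, 1.42, 2.09 and 1.09 FPKM in si14-3-3ζ cells at 0 h, against 1.37, 2.47, 1.59 and 1.59 in siCon cells. At 24 and 48 h every library of both kinds of cell had at most 0.224 FPKM, and 5 of these 16 libraries were listed at 0. Knockdown changes were −0.15, 0.01 and 0.08 on the log2 scale and did not pass (limma adjusted p = 0.484, 0.959 and 0.631).

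**Figure D2:**
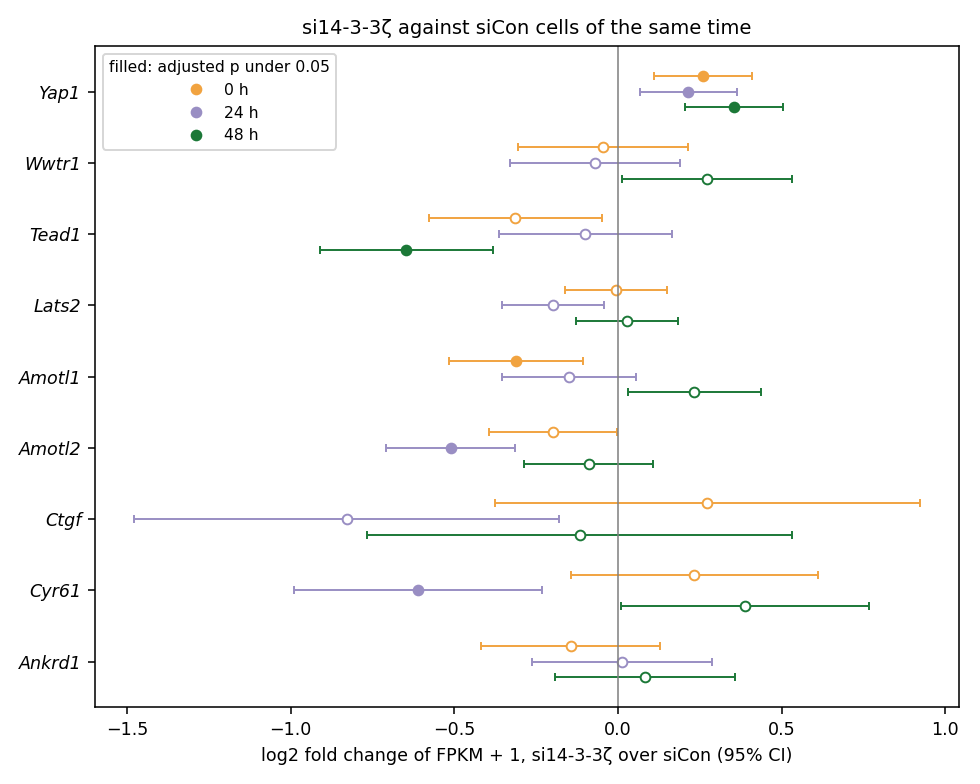
Log2 fold change of FPKM + 1, si14-3-3ζ over siCon cells (horizontal axis), for the 9 genes at 0, 24 and 48 h, with 95% intervals from limma. Filled points have an adjusted p under 0.05. Yap1 lay right of 0 at all 3 times, at 0.26, 0.21 and 0.35, and Tead1 lay at −0.65 at 48 h.

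Induction lowered most of the 9 genes. By 48 h Ctgf and Ankrd1 had almost vanished and Cyr61, Amotl1 and Amotl2 had fallen in both kinds of cell, and Yap1 did not pass the test at either time. In si14-3-3ζ cells 6 of the 9 genes were lower after 24 h than before induction and 6 after 48 h, beside 31.9% and 29.7% of all loci. In siCon cells 6 were lower after 24 h and 7 after 48 h, beside 33.4% and 35.7% of all loci. By limma 0 genes were higher in these 4 comparisons, also at an unadjusted p under 0.05, where 28.3% and 26.5% of all loci were higher in si14-3-3ζ cells and 30.8% and 33.9% in siCon cells. The comparisons of 24 and 48 h share the libraries of 0 h. Entering the test took 1 FPKM in 4 or more libraries. Ankrd1 reached that level only at 0 h, and Ctgf at 0 h and in siCon 24 h replicates 1 and 3. The filter thus favoured the fall of both, which is counted in all 4 comparisons. A mean FPKM of at least 5 removes both. It left 4 genes lower after 24 h and 4 after 48 h in si14-3-3ζ cells, beside 30.2% and 28.3% of all loci. In siCon cells it left 4 and 5, beside 31.5% and 33.8%.

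Ctgf averaged 7.53, 0.222 and 0.129 FPKM in si14-3-3ζ cells at 0, 24 and 48 h, and 5.59, 1.25 and 0.240 in siCon cells. At 48 h the libraries had 0.276, 0, 0.124 and 0.115 FPKM with knockdown and 0.627, 0.174, 0 and 0.158 in siCon cells. By 48 h the log2 change from 0 h was −2.77 with knockdown and −2.38 in siCon cells (limma adjusted p = 1.5e-07 and 6.4e-07). After 24 h it was −2.68 in si14-3-3ζ and −1.58 in siCon cells (limma adjusted p = 1.6e-07 and 1.5e-04). The size of these changes depends on the pseudocount, and with 0.1 in place of 1 they were −5.01 and −4.33 at 48 h. The difference of the 24 h responses did not pass limma's test (−1.10, adjusted p = 0.277). For Ankrd1 the log2 changes to 24 h were −1.17 in si14-3-3ζ and −1.33 in siCon cells, and to 48 h −1.16 and −1.39. With a pseudocount of 0.1 the 48 h changes were −2.97 with knockdown and −3.76 in siCon cells. Ankrd1 entered the test only through libraries of 0 h, at 1.09 to 2.47 FPKM, and had at most 0.224 FPKM after induction. The filter thus favoured its fall, and these values are a description.

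Cyr61 fell in si14-3-3ζ cells by 24 h, by 1.16 on the log2 scale (limma adjusted p = 9.6e-06). In siCon cells its 24 h change was −0.32, which did not pass (adjusted p = 0.128, and 0.0422 without siCon 24 h replicate 3, with 0.0422 to 0.466 over all alternatives), although by 48 h it had fallen by 1.01 (adjusted p = 4.0e-05). The difference between the 24 h responses, −0.84 (95% interval −1.38 to −0.31), did not pass limma's test over all loci (adjusted p = 0.114). It passed without siCon 24 h replicate 4 (0.0371), without si14-3-3ζ 0 h replicate 4 (0.0437) and with the replicate number as a block (0.0341), with 0.0341 to 0.246 over all alternatives.

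**Figure D3:**
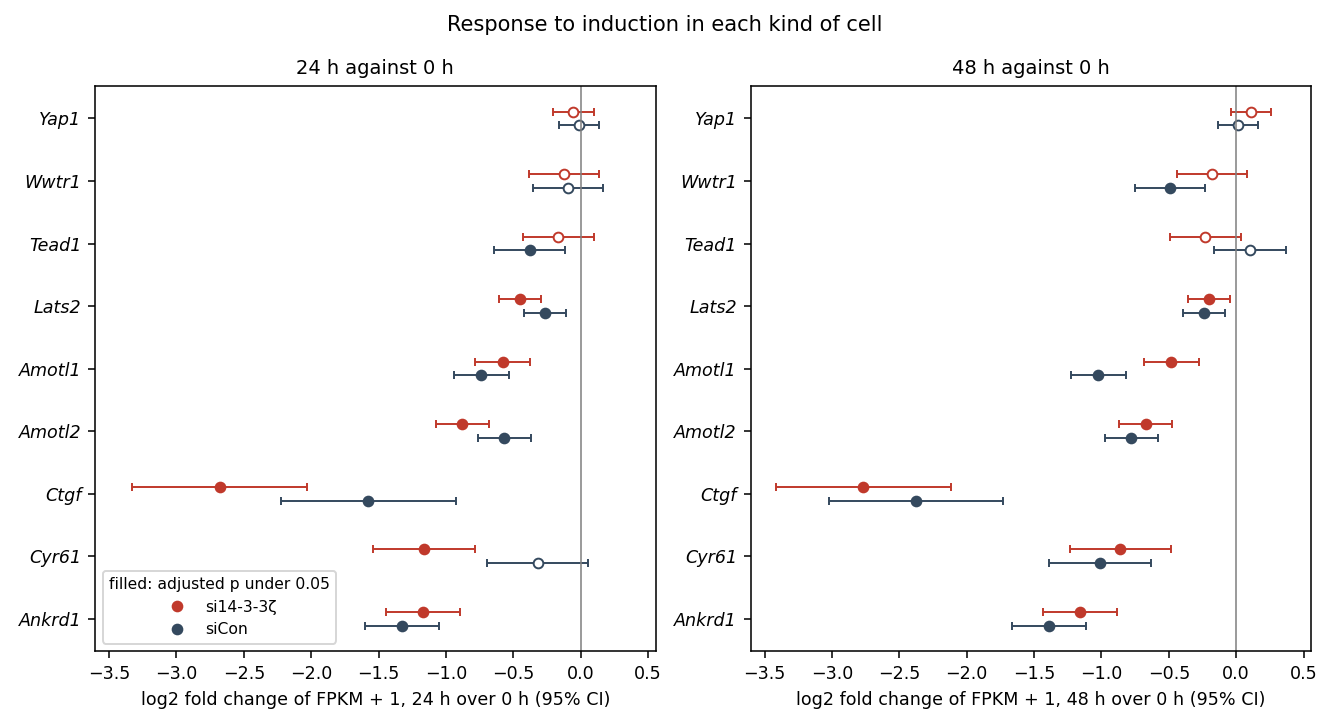
Log2 fold change of FPKM + 1 from 0 h to 24 h (left) and to 48 h (right) for the 9 genes, in si14-3-3ζ (red) and siCon cells (blue), with 95% intervals from limma. Filled points have an adjusted p under 0.05. Ctgf lay at −2.77 and −2.38 at 48 h, and Amotl1 at −0.48 and −1.03.

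Of the 9 genes, limma called a difference between the responses of the 2 kinds of cell for Amotl1 alone. From 0 to 48 h it fell by 0.48 on the log2 scale with knockdown and by 1.03 in siCon cells (limma adjusted p = 2.9e-04 and 5.2e-09), a difference of 0.545 (standard error 0.140, limma adjusted p = 0.00971). The mean levels of Amotl1 at 0, 24 and 48 h were 21.3, 13.9 and 14.9 FPKM with knockdown and 26.5, 15.5 and 12.6 in siCon cells. With the replicate number as a block, the difference for Wwtr1 at 48 h passed too (0.0307, with 0.0307 to 0.416 over all alternatives), beside that for Cyr61 at 24 h. The block also raised the shares of all loci, to 14.6% higher at 48 h and 2.18% lower at 24 h. The 48 h response was called higher with knockdown at 8.69% of all loci and lower at 9.24%, and 0 of the 9 genes were lower. The 24 h response was higher at 0.638% of all loci and lower at 0.789%, and limma called 0 of the 9 genes in either direction (3 had an unadjusted p under 0.05, Amotl2, Ctgf and Cyr61). Amotl2 fell by 0.88 and 0.67 on the log2 scale to 24 and 48 h in si14-3-3ζ cells, and by 0.57 and 0.78 in siCon cells (limma adjusted p of 1.9e-05 or lower in each).

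Upstream of these, Wwtr1 had a 48 h change of −0.18 with knockdown, where limma gave an adjusted p of 0.233 (0.0457 with the replicate number as a block, with 0.0457 to 0.552 over all alternatives), and fell by 0.49 on the log2 scale in siCon cells (adjusted p = 0.00141), where its 17.5 to 23.2 FPKM at 48 h lay below the 27.5 to 33.4 FPKM of 0 h. The difference of these responses did not pass (0.32, adjusted p = 0.225). The Lats2 locus fell in all 4 comparisons, by 0.45 and 0.20 to 24 and 48 h in si14-3-3ζ cells and by 0.26 and 0.24 in siCon cells (limma adjusted p = 2.0e-05, 0.0260, 0.00422 and 0.00779). Its 48 h call in si14-3-3ζ cells ended without si14-3-3ζ 0 h replicate 1 or 2 (0.0609 and 0.0572) and without si14-3-3ζ 48 h replicate 1 or 2 (0.0624 and 0.0775), with 0.0188 to 0.0775 over all alternatives. Fits of only the 2 groups ended both 48 h calls, with 0.0558 in si14-3-3ζ and 0.0512 in siCon cells (0.00179 to 0.0512 over the alternatives of siCon cells), and median-ratio scaling ended that of si14-3-3ζ cells (0.0525). Tead1 had changes of −0.16 and −0.23 to 24 and 48 h in si14-3-3ζ cells (adjusted p = 0.269 and 0.129). It fell by 0.38 in siCon cells at 24 h (adjusted p = 0.0130, and 0.0533 without siCon 24 h replicate 1, with 0.00570 to 0.0533 over all alternatives) and was at 0.10 at 48 h (adjusted p = 0.482).

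Fewer of the 9 genes had libraries that stood apart in the knockdown comparisons than in those of induction, as was so of all loci. Between si14-3-3ζ and siCon cells 3, 2 and 3 of the 9 genes did not overlap at 0, 24 and 48 h, beside 22.1%, 29.4% and 36.7% of all loci. Between 24 or 48 h and 0 h, 6 and 6 did not overlap in si14-3-3ζ cells, beside 56.3% and 49% of all loci. In siCon cells 6 and 7 did not, beside 54.4% and 57.9%. Ctgf and Ankrd1, whose fall the filter on level favoured, are among those counted in each comparison of induction.

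Other genes of the pathway were taken from lists. Of 22 tested genes of the Hippo cascade and its upstream regulators, knockdown called 2 higher and 3 lower at 0 h, beside 8.1% and 9.16% of all loci. It called 3 higher and 4 lower after 24 h of induction, beside 14.5% and 14%, and 11 higher and 3 lower after 48 h, beside 23.3% and 22.8%. The median log2 changes were 0.08, 0.10 and 0.30. Mob1a, which activates LATS kinases, was lower at all 3 times, at 0 h with 60.8 ± 3.35 FPKM in si14-3-3ζ cells against 87.6 ± 7.68 in siCon cells (SD, n = 4), with log2 changes of −0.52, −0.63 and −0.50. Frmd6, a scaffold upstream of the kinases, stood at 37.1 ± 0.920 FPKM at 48 h in si14-3-3ζ cells, against 21.8 ± 4.98 in siCon cells (log2 change 0.77, limma adjusted p = 1.5e-05). Wwc2, a scaffold of the KIBRA family, was also higher at 48 h (0.47, limma adjusted p = 8.7e-06), and Rassf5, an adaptor of the MST kinases, was lower at 0 and 24 h (−0.70 and −0.60).

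Tead1 is 1 of 4 TEAD genes in the table, and no test compared them with each other. Tead4 had 10.7 ± 1.61, 25.0 ± 1.26 and 36.9 ± 4.98 FPKM in si14-3-3ζ cells at 0, 24 and 48 h, against 7.18 ± 0.461, 14.8 ± 1.96 and 24.9 ± 1.70 in siCon cells (SD, n = 4). It was higher with knockdown at each time (log2 changes 0.51, 0.72 and 0.54, limma adjusted p = 0.00196, 3.2e-05 and 3.0e-04) and rose with induction in both kinds of cell, by 1.69 and 1.66 to 48 h. Tead2 was higher at 48 h (0.46, limma adjusted p = 0.0271), and Tead3 passed in no knockdown comparison. Of the Vgll genes, which encode cofactors that bind TEAD, Vgll4 was higher at 0 h (0.38, limma adjusted p = 0.0478) and Vgll3 passed in no knockdown comparison.

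A list of other YAP and TAZ targets, drawn from a published score of human tumours, had 16 tested genes. Of these, 1 was higher and 2 lower with knockdown at 0 h, where 8.1% and 9.16% of all loci were. After 24 h of induction 4 were higher and 2 lower, where 14.5% and 14% of all loci were, and after 48 h 9 and 3, where 23.3% and 22.8% were. The median log2 changes were −0.05, 0.14 and 0.46. Axl, a receptor tyrosine kinase, had 190.1 ± 7.57 FPKM at 48 h in si14-3-3ζ cells, against 80.5 ± 11.9 in siCon cells (log2 change 1.24, limma adjusted p = 1.8e-08), and did not pass at 0 h (−0.05, adjusted p = 0.777). Nuak2, a kinase related to AMPK, was lower at 0 and 24 h (−0.60 and −0.42) and higher at 48 h (0.83, limma adjusted p = 9.2e-05). Gadd45a, a stress and growth arrest gene, was lower at 0 h (−0.31) and higher at 48 h (0.49). With induction of si14-3-3ζ cells limma called 9 of the 16 lower and 0 higher by 24 h (1 was higher at an unadjusted p under 0.05), and 10 lower and 2 higher by 48 h. Of all loci 31.9% and 29.7% were lower there, and 28.3% and 26.5% higher. In siCon cells 11 were lower by 24 h and 11 by 48 h, beside 33.4% and 35.7% of all loci. There limma called 0 higher (0 also at an unadjusted p under 0.05), beside 30.8% and 33.9% of all loci. The response to 48 h was higher with knockdown for 5 and lower for 1 by limma's test of the difference, beside 8.69% and 9.24% of all loci. Among the 5 was Axl, which fell by 0.30 in si14-3-3ζ cells and by 1.59 in siCon cells.

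**Figure D4:**
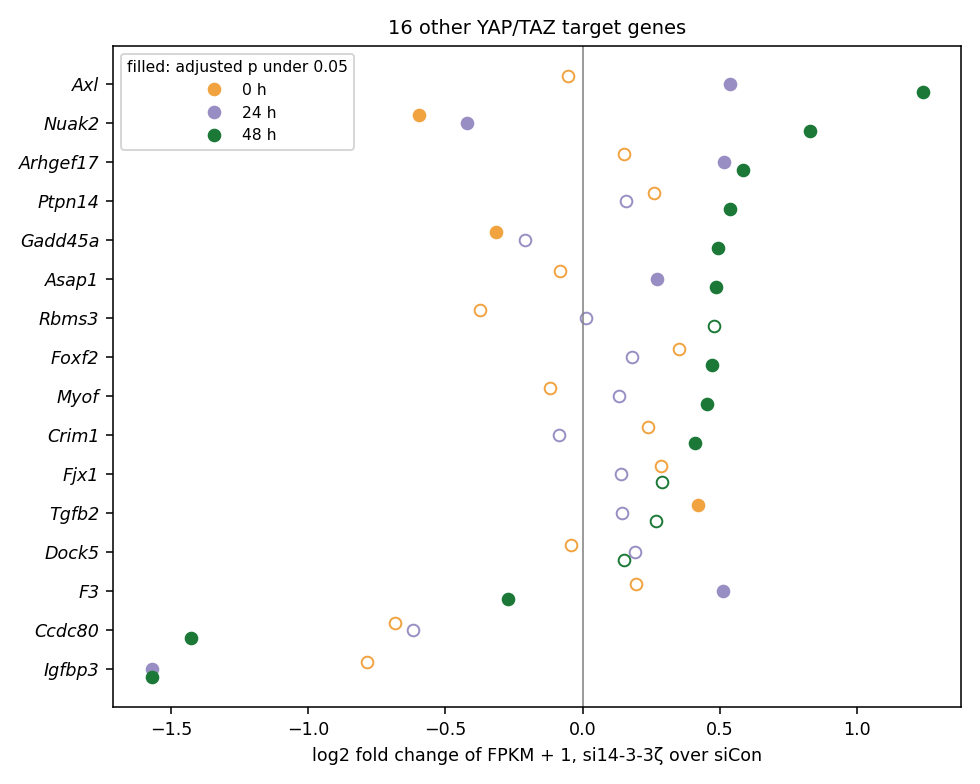
Log2 fold change of FPKM + 1, si14-3-3ζ over siCon cells (horizontal axis), for 16 other YAP and TAZ target genes at 0, 24 and 48 h, ordered by the 48 h value. Filled points have an adjusted p under 0.05 by limma, 9 to the right of 0 and 3 to the left at 48 h, with Axl at 1.24.

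Of 3 other tested genes of the CCN family, to which Ctgf and Cyr61 belong, 2 were lower with knockdown at 0 h, 2 at 24 h and 1 at 48 h, beside 9.16%, 14% and 22.8% of all loci. Wisp2 was lower at all 3 times, with 80.9 ± 4.47, 67.3 ± 3.81 and 36.2 ± 13.1 FPKM in si14-3-3ζ cells against 157 ± 8.38, 236 ± 15.3 and 84.4 ± 17.3 in siCon cells (SD, n = 4, log2 changes −0.95, −1.79 and −1.24). Wisp1 was lower at 0 and 24 h (−0.67 and −0.64), and Nov passed in no knockdown comparison. No other 14-3-3 gene of the 5 tested was higher with knockdown at any time. At 48 h Ywhab, with 130.0 ± 5.18 FPKM against 197 ± 29.2 in siCon cells, and Ywhaq, with 156 ± 15.5 against 191 ± 23.8, were lower (log2 changes −0.58 and −0.28), and at 24 h only Ywhaq was (−0.24, limma adjusted p = 0.0282). The locus of Sfn, which it shares with Zdhhc18, and Ywhah passed in none of the 3 knockdown comparisons.

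The cells carried the markers of the labelled type. All 6 markers of fibroblasts and pre-adipocytes were in the table, and all 5 of adipocytes. None of 4 endothelial, 4 macrophage or 4 epithelial markers had a row, and of 4 muscle markers Des did, at 0.756 to 6.14 FPKM. The table holds loci selected for level and change, so a missing row does not show that a gene was silent. The adipocyte sum ran from 206 to 493 FPKM at 48 h in si14-3-3ζ cells, against 1375 to 4632 in siCon cells. It ran from 146 to 236 against 393 to 713 at 24 h, and from 552 to 677 against 1462 to 1769 at 0 h. Its genes weigh unequally, as Fabp4 and Lpl reached 3701 and 1338 FPKM, and Adipoq, Plin1 and Cidec 38.2, 103 and 100. The fibroblast sum averaged 1878 FPKM against 2678 at 48 h, 2045 against 3719 at 24 h and 3800 against 6299 at 0 h. In it Col1a1 and Col1a2 reached 1921 and 3632 FPKM, and the next highest, Dlk1, 905. Both sums moved with knockdown at each time at which the genes above were compared, and their part in those results was not tested.

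By Pearson r over the 6 group means of log2(FPKM + 1), the loci most like Ctgf were Ablim1, Bin1, Arhgef10l, Papss2 and Phactr1, with r of 0.991 to 0.996. Those most like Cyr61 were Slc30a7, Phlda1, Stk3, S100a4 and Itpr2, with r of 0.980 to 0.993, all highest in si14-3-3ζ cells at 0 h. Those most like Ankrd1 were Cml3, Sema3b, Gpr176, 2310022B05Rik and a locus of several genes, with r of 0.998 or higher. Each r rests on 6 points that come from the same 24 libraries. Among tested loci with a gene symbol, 306, 36 and 648 had r over 0.95 with Ctgf, Cyr61 and Ankrd1. Closeness of this kind was thus not confined to the loci named.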

How the data were processed

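Paired-end reads of 24 libraries were aligned by the authors with TopHat2 2.0.11 to NCBIM37, and the deposited values are FPKM per locus from Cufflinks 2.2.0. The table names no unit and holds no read counts, and no count test was run. The sources used here do not say whether counting used strand. Antisense genes overlap Yap1, Wwtr1, Tead1, Lats2 and Ctgf, and reads of such pairs may not be separated.

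Loci that reached 1 FPKM in 4 or more libraries (9251) entered a fit of log2(FPKM + 1) in limma 3.58.1 under R 4.3.3, with a mean per group and eBayes with trend. Adjustment was by Benjamini-Hochberg over all loci tested, and the fit was checked on simulated data. The 9 genes were also compared by exact permutation of FPKM, 2-sided, with 70 assignments of 4 libraries against 4. The exact permutation test gave p = 0.0286 in 8 of 27 comparisons, those whose groups did not overlap. Of all loci, 22.1%, 29.4% and 36.7% did not overlap between si14-3-3ζ and siCon cells at 0, 24 and 48 h. Figures and tables were made in Python 3.11.15 with numpy 2.4.6, pandas 2.3.3 and matplotlib 3.10.9. GENCODE M1 gave the gene positions.

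The 10 genes and the lists were chosen with earlier results of these data known. Named were all 9 genes, up to 4 genes per list by the smallest adjusted p of knockdown, and the 5 loci most alike to each target. The 2 listed relatives of Ankrd1 were not analysed here. Alternatives included another pseudocount (0.1), other filters (none, or mean FPKM from 5 upwards), median-ratio and quantile scaling, fits of the compared groups alone, eBayes with no trend, a replicate block, and the loss of each library in turn.

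Groups carry the same replicate numbers in the labels, with no word on what a number marks. Same-numbered libraries deviated together, with every r over 0.1, in knockdown at 24 h (0.101 to 0.443), in siCon cells to 24 h (0.198 to 0.506) and 48 h (0.179 to 0.502) and in si14-3-3ζ cells to 24 h (0.135 to 0.546). The main fit paired no libraries in any comparison. The replicate block was an alternative fitted to every comparison, and outside those named here some r fell below 0.1.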

Additional observations from a re-analysis of the deposited data

Results flagged for a closer look

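The response of Amotl1 to 48 h of induction differed between si14-3-3ζ and siCon cells by 0.545 on the log2 scale (adjusted p = 0.00971 for that difference in limma), the fall being smaller with knockdown. In this fit 1 of the 9 genes passed at 48 h, beside 8.69% of all loci higher and 9.24% lower. With the replicate number as a block Wwtr1 passed too (0.0307, limma), beside 14.6% of all loci higher.

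Tead1 stood at 16.8 FPKM in siCon 0 h replicate 3 and at 17.8 to 18.0 FPKM in the other 3 libraries of that group, a gap that passes Dixon's test for a lone low value. This was 1 of 54 groups of a gene tested so, and chance alone gives about 1 in 20.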

How the results depend on the processing

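Each of 81 values of the 9 genes was recomputed under 32 alternatives, and of 2574 recomputed values 2493 kept their direction and their side of the threshold, 22 lost a call, 35 gained one and 24 changed sign. A mean FPKM of at least 5 removes Ctgf and Ankrd1. With the replicate number as a block, 4 genes were lower with knockdown at 24 h (2 without it), 4 were higher at 48 h (1 without it), 1 response to 24 h was lower (0 without it) and 2 responses to 48 h were higher (1 without it), and no other count moved by over 1.5 times. The same block called 18.9%, 27.8%, 2.18% and 14.6% of all loci in these directions, against 14%, 23.3%, 0.789% and 8.69% without it. The genes added were Ctgf and the Lats2 locus, then Amotl1, Cyr61 and Wwtr1, then Cyr61, then Wwtr1. A pseudocount of 0.1 gave 4 lower at 24 h, beside 13.8% of all loci. At 48 h median-ratio scaling and a fit of only the groups compared gave 2 higher each, beside 23.1% and 18.7% of all loci. Leaving out a library gave 0 to 1 higher and 0 to 1 lower at 0 h, beside 4.54% to 8.47% and 6.46% to 9.51% of all loci. At 24 h it gave 0 to 1 higher and 1 to 3 lower, beside 10.3% to 14.9% and 10.9% to 14.4%. At 48 h it gave 1 to 2 higher, beside 19.7% to 23.6%. For the difference at 24 h it gave 0 to 1 lower, beside 0.789% with all libraries kept. The causes were not tested.

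The changes of sign were all in values that passed the test neither before nor after. With quantile normalization Yap1 was at 0.0007 to 24 h in siCon cells. Leaving out a library, that value ran from −0.0462 to 0.0166 and its 48 h value from −0.0214 to 0.0421. The knockdown values at 0 h ran from −0.127 to 0.0325 for Wwtr1 and −0.0671 to 0.0341 for Lats2, those at 24 h from −0.136 to 0.0183 for Wwtr1, −0.174 to 0.0064 for Tead1 and −0.0283 to 0.0690 for Ankrd1, and that at 48 h from −0.212 to 0.0218 for Ctgf. The differences of the responses ran from −0.104 to 0.0633 for Wwtr1 at 24 h, and at 48 h from −0.0068 to 0.0944 for Lats2 and −0.0054 to 0.271 for Cyr61. With unknown depth, no counting error can be given for values under 1 FPKM.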

Other observations

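Replicate numbers moved together in some of these genes, a pattern noticed after seeing the data and not tested. Ctgf replicates 1 and 3 both stood above replicates 2 and 4 in 4 of the 6 groups, and those of Cyr61 and Yap1 in 3 of them. Yap1 went the other way in 1 group. Of all loci 20.2% stood so in at least 3 groups and 8.96% in at least 4. At 0 h Ctgf had 12.4 and 10.1 FPKM in replicates 1 and 3 and 4.23 and 3.42 in replicates 2 and 4 of si14-3-3ζ cells, and 8.48 and 6.05 against 4.00 and 3.82 in siCon cells. Ywhaz, the knocked-down gene, stood lower in replicates 1 and 3 than in 2 and 4 in all 3 si14-3-3ζ groups, for example 27.0 and 21.9 against 34.3 and 35.0 FPKM at 0 h. Amotl1 was also lower in replicates 1 and 3 in these 3 groups. Of all loci 24.5% were lower in any 3 or more of the 6 groups. In siCon cells at 0 h Ywhaz went the other way, at 182 and 168 against 158 and 154 FPKM. No source says what a replicate number marks.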
